A study of Mus musculus with 5 samples.

Results

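The genes described here encode the MCM helicase and the factors that license and start DNA replication. They were the 10 rows of the deposited table whose symbol is Mcm2, Mcm3, Mcm4, Mcm5, Mcm6, Mcm7, Mcm10, Cdc45, Cdc6 or Cdt1, out of 23420 listed genes. Of these 10 genes, 8 had usable values and were among the 9400 tested genes, and Cdc45 and Cdc6 were listed at exactly 0 in each library. The samples were live (propidium iodide-negative) forebrain cells of mice at postnatal day 8, sorted for CD11b, a gate that takes microglia and also other myeloid cells. The knockout group (3 libraries) came from Cx3cr1CreERT2/+:Stat3fl/fl pups, in which tamoxifen from postnatal day 1 to 3 switches on a Cre recombinase expressed from the Cx3cr1 gene. The control group (2 libraries) came from Stat3fl/fl littermates without Cre. Both groups therefore carry floxed Stat3, while the Cre insertion and 1 disrupted Cx3cr1 copy are found in the knockout group alone, so their effects and that of Stat3 loss cannot be told apart. Tamoxifen is stated for the Cre-carrying mice. Whether the control littermates received it is not stated separately, pups were genotyped at postnatal day 6, after the dosing, and the treatment label of each sample reads untreated. For each library, 2 to 4 pups of one genotype, male and female, were pooled, and the pools were separate.

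Before a cell copies its DNA, origins of replication are licensed in the G1 phase. The origin recognition complex, Cdc6 and Cdt1 load the Mcm2 to Mcm7 proteins onto DNA as an inactive ring-shaped hexamer. In S phase, kinases together with Cdc45, the GINS complex and Mcm10 turn that ring into the active helicase that opens the DNA ahead of the polymerases. Transcripts of these genes are low in resting cells and rise when cells enter the cycle, largely under E2F transcription factors, so they are widely used as marks of proliferation. Microglia divide actively in the first postnatal weeks and much less in the adult brain.

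E2F words in these promoters are shown first because most of the members with a promoter window hold one, and the choice of genes did not use them. In RefSeq sequence of build GRCm38.p6, 9 of the 10 genes had a window from 250 bases before to 50 bases after the annotated start, and Mcm4 had none. The 4 words TTTCCCGC, TTTCGCGC, TTTGCCGC and TTTGGCGC were searched on both strands. Of the 9 genes, 6 held at least 1 of them (Cdc6, Cdt1, Mcm3, Mcm5, Mcm6 and Mcm7). Among all 27025 genes with a window the share was 2.6%, and among all 32851 windows 2.26%. The lines below give 30 bases around each match, 5′ to 3′ in the direction of the gene, with the matched words in capitals. In Mcm5 and in the first Mcm6 match, 2 words on opposite strands overlap.
Cdc6: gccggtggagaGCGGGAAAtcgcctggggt
Cdt1: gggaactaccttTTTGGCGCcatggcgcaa
Mcm3, first match: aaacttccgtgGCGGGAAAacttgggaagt
Mcm3, next match: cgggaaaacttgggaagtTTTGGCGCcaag
Mcm5: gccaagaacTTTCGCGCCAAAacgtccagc
Mcm6, first match: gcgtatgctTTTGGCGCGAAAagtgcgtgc
Mcm6, next match: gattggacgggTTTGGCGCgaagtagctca
Mcm7, first match: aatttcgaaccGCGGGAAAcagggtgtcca
Mcm7, next match: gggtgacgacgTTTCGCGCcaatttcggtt

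The Cdc6 bases lie at chr11:98908002-98908031 on the plus strand, inside the annotated gene and outside its exons. The Cdt1 bases lie at chr8:122568035-122568064 on the plus strand, in an exon of Cdt1. Both Mcm3 matches are in an exon of that gene on the minus strand, at chr1:20820275-20820304 and chr1:20820263-20820292. The Mcm5 bases at chr8:75109347-75109376 (plus strand) and the Mcm6 bases at chr1:128359795-128359824 and chr1:128359734-128359763 (minus strand) lie outside annotated genes, upstream of the start. The first Mcm7 match, at chr5:138172030-138172059 on the minus strand, falls in exons of both Mcm7 and the neighbouring Ap4m1. The other, at chr5:138171849-138171878, falls in an Mcm7 exon. CCAAT, the box bound by NF-Y, was found in 7 of the 9 genes, against 41.1% of all genes with a window. A match says only that these letters are present. No binding was measured here, and the members with a word did not share a direction of difference, as the values below show.

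Values are log2 expression centred per gene on a reference that is not part of the table, so they show how libraries differ for a gene and not how strongly one gene is expressed relative to another. The depth per library is unknown, and the 5 values of a gene with few reads are pulled together by the transform. Stat3 did not bear out the labels: its values were 0.96, 0.07 and 0.24 in the knockout group against 0.08 and 0.45 in the control group (limma adjusted p = 0.947). The table gives 1 value per gene, so reads from the floxed exons cannot be told from the others. Cx3cr1, which carries the Cre insertion, was below both controls in each knockout library, with a log2 difference of -0.90 (SE 0.37, limma adjusted p = 0.638). Directions below are therefore given for the libraries labelled knockout. The median of the log2 differences was 0.14 over the 9400 genes, the level against which each difference should be read.

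Between the labelled knockout group and the controls, no member passed the test. In the hexamer, Mcm2, Mcm3 and Mcm7 had higher means in the labelled knockout libraries and Mcm4, Mcm5 and Mcm6 lower ones, and only Mcm3 and Mcm7 kept the groups apart. Cdt1 and Mcm10 had higher means as well, and Mcm10 kept the groups apart. By limma with Benjamini-Hochberg adjustment over all 9400 tested genes, 0 of the 8 tested members were called higher (background 0.0%) and 0 lower (background 0.0%). At an unadjusted p under 0.05 the members numbered 0 in either direction, against 526 genes higher (5.6%) and 198 lower (2.11%) in the whole table. The difference was above 0 in 5 of the 8 members, against 60.0% of all tested genes. Each labelled knockout library lay above both controls in 3 of the 8 members, against a background of 17.2%, and below both in 0, against 7.06%. One of these separated genes, Mcm10, passed the filter on low values only through the labelled knockout libraries, as described below, so the counts and the median of the tested members are descriptions. Of the other 7 tested members, 4 had a difference above 0. The shares over all tested genes also include genes that passed in the way Mcm10 did, and were not computed without them. The median log2 difference of the 8 members was 0.45, which is 0.31 above that of all tested genes. It fell to 0.02 without control replicate 1, which is -0.10 relative to all genes in that fit, and was 0.23 without knockout replicate 1. For the hexamer alone the median was 0.13, against 0.14 over all genes.

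**Figure D1:**
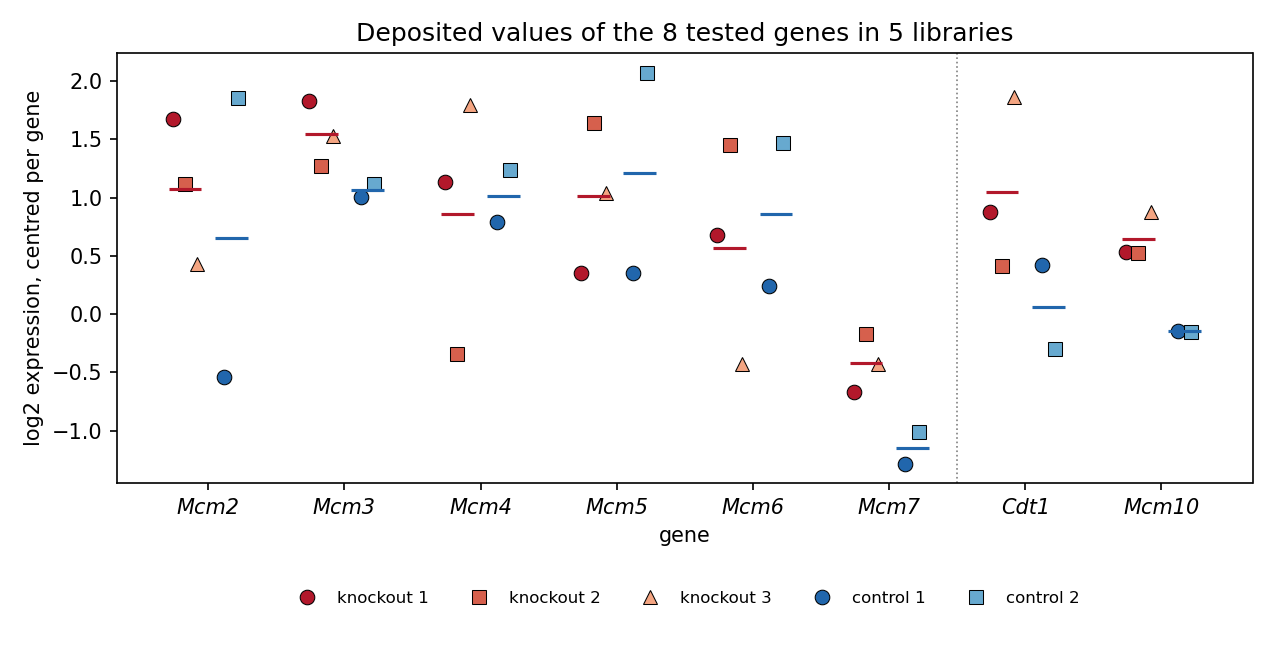
Deposited log2 values, centred per gene, of the 8 tested genes (horizontal axis) in the 3 libraries labelled knockout (red shades) and the 2 controls (blue shades), with symbols for the replicates and short lines for the group means. The groups do not overlap in Mcm3, Mcm7 and Mcm10, and the controls of Mcm2 lie 2.40 log2 units apart.

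Mcm3, a subunit of the hexamer, showed controls close together and groups that did not overlap. Its values were 1.83, 1.27 and 1.53 in the labelled knockout group against 1.01 and 1.12 in the control group. The lowest labelled knockout library lay 0.15 above the higher control, while the labelled knockout libraries spanned 0.57, more than the difference between the groups. The log2 difference was 0.48 with SE 0.38 and a 95% interval from -0.38 to 1.33 (limma adjusted p = 0.779). The gene lies on chromosome 1 from 20802968 to 20820312 (GENCODE vM21, GRCm38).

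Mcm7, another hexamer subunit, showed the widest separation of groups in the ring. Its values were -0.67, -0.17 and -0.43 in the labelled knockout libraries against -1.28 and -1.01 in the controls. Both controls lay below each labelled knockout library, with a gap of 0.34 between the nearest libraries of the groups. The log2 difference was 0.72 with SE 0.38 and a 95% interval from -0.13 to 1.58 (limma adjusted p = 0.709). Mcm7 lies on chromosome 5 from 138164583 to 138172422, and 12.6% of its exon bases are also exon bases of other genes. The library kit does not mark strand, so reads from those bases cannot be assigned to one gene. Ap4m1, which encodes a subunit of an adaptor complex in vesicle transport, shares 321 exon bases with Mcm7 and begins on the opposite strand. It was looked up after the values of Mcm7 had been seen. Ap4m1 moved in the same direction with -0.11, 0.31 and 0.31 in the labelled knockout libraries and -1.77 and -0.94 in the controls. Its log2 difference was 1.53 (SE 0.41, limma adjusted p = 0.615), and its part in the Mcm7 value was not tested. Cops6, a COP9 signalosome gene that shares 64 exon bases, differed by 0.25 (SE 0.36).

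The remaining hexamer genes had groups that overlapped, with controls further apart than the group difference. Mcm2 stood at 1.67, 1.12 and 0.43 in the labelled knockout libraries and at -0.54 and 1.85 in the controls, so that the controls were the lowest and the highest of the 5. The log2 difference of Mcm2 was 0.42 with SE 0.69 and a 95% interval from -1.15 to 1.98 (limma adjusted p = 0.898). Leaving out control replicate 2 gave 1.62 and leaving out control replicate 1 gave -0.78. Mcm2 is on chromosome 6 from 88883474 to 88898780.

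Mcm5 gave 0.35, 1.64 and 1.04 in the labelled knockout libraries and 0.35 and 2.07 in the controls. Knockout replicate 1 and control replicate 1 were nearly level and control replicate 2 was the highest. The difference was -0.20 (SE 0.59, 95% interval from -1.54 to 1.14). Mcm5 is on chromosome 8 from 75109569 to 75128439. Mcm6 gave 0.68, 1.45 and -0.43 against 0.25 and 1.47, a difference of -0.29 (SE 0.61, 95% interval from -1.67 to 1.09). Knockout replicate 3 was the lowest library for Mcm6 and control replicate 2 the highest, with knockout replicate 2 just under it. Mcm6 is on chromosome 1 from 128331590 to 128359664.

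Mcm4 was the hexamer gene with the widest spread among the labelled knockout libraries, at 1.13, -0.34 and 1.79, while its controls stood at 0.80 and 1.24. Knockout replicate 2 was the lowest library and knockout replicate 3 the highest, and both controls fell between them. The difference was -0.16 (SE 0.60, 95% interval from -1.53 to 1.22). Mcm4 is on chromosome 16 from 15623897 to 15637400. The limma adjusted p was 0.972 for Mcm4, 0.967 for Mcm5 and 0.922 for Mcm6.

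**Figure D2:**
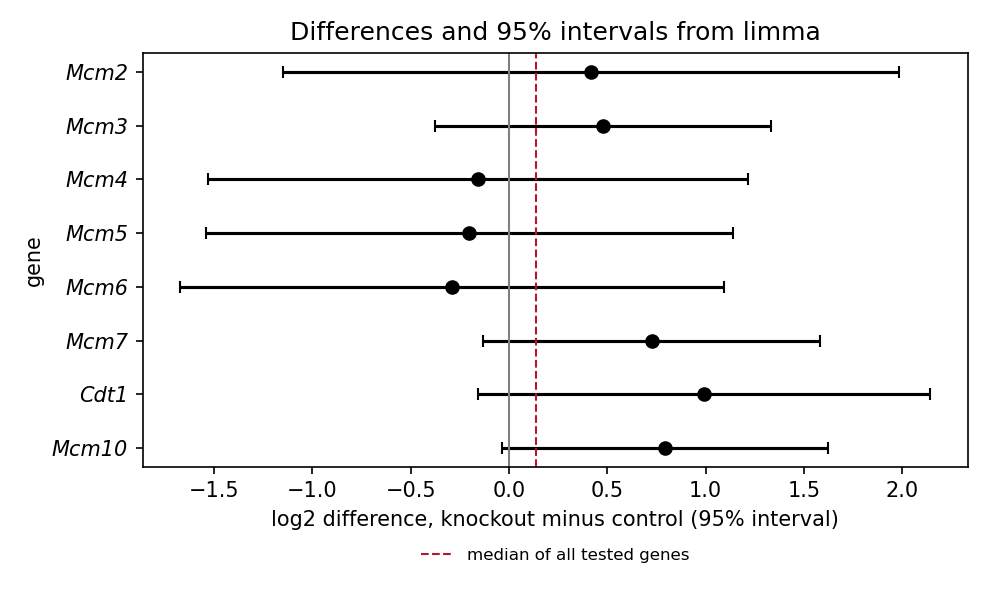
Log2 difference of each of the 8 tested genes (vertical axis), labelled knockout minus control, with its limma 95% interval. Each interval includes 0, and the dashed line marks the median of all tested genes at 0.14.

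Of the loading factors, Cdt1 had the largest difference among the 8 members and Cdc6 gave no measurement. Cdt1 brings the hexamer to the origin and is destroyed or held by geminin once S phase starts. It stood at 0.87, 0.42 and 1.87 in the labelled knockout libraries and at 0.42 and -0.30 in the controls. Knockout replicate 2 and control replicate 1 were level to 2 decimals, so the groups met at that point, and knockout replicate 3 was the highest. The log2 difference was 0.99 with SE 0.51 and a 95% interval from -0.16 to 2.14 (limma adjusted p = 0.703). Without knockout replicate 3 it was 0.58, and without control replicate 2 it was 0.63. Cdt1 is on chromosome 8 from 122568015 to 122573554.

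Of the activation factors only Mcm10 had values to test, at 0.53, 0.53 and 0.88 in the labelled knockout libraries against -0.14 and -0.15 in the controls. Mcm10 binds the loaded helicase and is needed to start unwinding. The gap between the groups was 0.67, and both controls were level. The log2 difference was 0.79 with SE 0.37 and a 95% interval from -0.04 to 1.62 (limma adjusted p = 0.665). The transform gives 0 reads a recognisable value. The controls of Mcm10 were 0.0142 apart, inside the range from 0.0129 to 0.015 (5th to 95th percentile) of 182 genes recognised at 0 reads in both controls at a like level. Both controls of Mcm10 thus lie where 0 reads would put a gene. A gene with such controls passes the filter on low values only through the labelled knockout libraries, so it had to stand higher there, and its separation supports nothing. Mcm10 is on chromosome 2 from 4989714 to 5012791.

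Cdc45, a permanent part of the active helicase, and Cdc6, the ATPase that works with Cdt1, were listed at 0 in all 5 libraries. Such a row cannot be read as absence of the transcript. Rpl11 and Rpl9, which encode ribosomal proteins that every cell uses, were also listed at 0 throughout, and 9 other ribosomal protein genes lay at the 0-read value in each library. Ufd1l, the older symbol of the gene that shares exon bases with Cdc45 on chromosome 16, lay at the 0-read value in all 5 libraries as well. Cdc45 lies on chromosome 16 from 18780447 to 18811987 and Cdc6 on chromosome 11 from 98907801 to 98923940.

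The order of the 2 controls was the same in each hexamer gene, while a gap between them wider than the group difference was common over all genes. Control replicate 2 was above control replicate 1 in 6 of 6 hexamer genes, against 47.8% of all tested genes. Control replicate 1 was the lowest of the 5 libraries in 4 of them (Mcm2, Mcm3, Mcm5 and Mcm7), against 23.7% of all genes. The gap between the controls was larger than the group difference in 4 of the 8 members (Mcm2, Mcm4, Mcm5 and Mcm6), against 62.4% of all genes. The gap exceeded 1 log2 unit in Mcm2, Mcm5 and Mcm6 (3 of 8, against 28.3%), at 2.40, 1.72 and 1.22. With each gene centred on its mean over the 5 libraries, the hexamer averaged 0.13, 0.12 and -0.05 in the labelled knockout libraries, -0.61 in control replicate 1 and 0.42 in control replicate 2. Over all tested genes these averages were 0.07, 0.05, 0.04, -0.13 and -0.03. Cdt1 had the opposite order, with control replicate 2 lower than control replicate 1 by 0.72. The order of the controls in Mcm10 cannot be read, because both lie where 0 reads would put a gene.

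**Figure D3:**
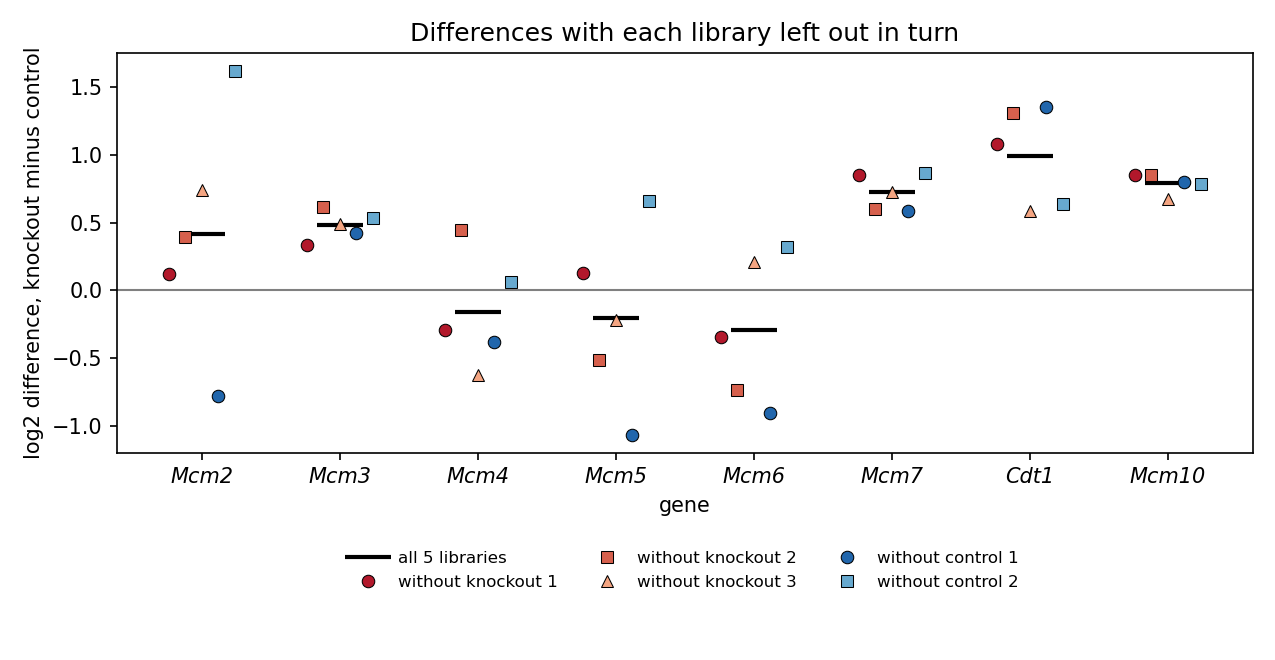
Log2 difference of each of the 8 tested genes, labelled knockout minus control, with all 5 libraries (black lines) and with each library left out in turn (symbols). Mcm3, Mcm7, Cdt1 and Mcm10 stay above 0, while Mcm2 runs from -0.78 to 1.62 and Mcm4, Mcm5 and Mcm6 fall on both sides of 0. Mcm10 had to stay above 0, as both its controls lie where 0 reads would put a gene.

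Leaving out each library in turn split the members into those that held their direction and those that did not. Mcm3 ran from 0.33 to 0.62, Mcm7 from 0.59 to 0.86, Cdt1 from 0.58 to 1.35 and Mcm10 from 0.68 to 0.85, all above 0. Mcm10 had to lie above 0 in these fits, because it passed the filter on low values only through the labelled knockout libraries. Without control replicate 1, Mcm2, Mcm5 and Mcm6 lay below the remaining control in each labelled knockout library, where 22.3% of all genes did, while Mcm3, Mcm7, Cdt1 and Mcm10 lay above it, as did 41.8%. Without control replicate 2, Mcm2, Mcm3, Mcm5, Mcm7 and Mcm10 lay above the remaining control in each of them, where 34.6% of all genes did, and 0 members lay below it, against 23.4%. With each library centred on its median, the groups stayed apart in Mcm7 and Mcm10 (2 of 8, against 8.35% of all genes above and 13.6% below) and overlapped in Mcm3. Of these 2 genes that stayed apart, only Mcm7 had controls away from the 0-read value. That scaling moved the median difference of all genes from 0.14 to -0.11 and lowered each member by the same amount. Quantile normalization moved it to -0.01. The direction of each of the 8 members was the same under both scalings.

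Other factors of licensing and firing were described from lists that were chosen with earlier results of these data known. In each of these lists 0 genes passed the limma threshold. Counts of higher genes should be read beside the 60.0% of all tested genes that were higher. Genes with both controls at or level with the 0-read value had to be higher to be tested. The counts below and the 60.0% both include such genes, and the share was not computed without them. In the lists they were 2 of 9 licensing factors, 3 of 8 firing factors and 4 of 21 fork genes. They were also 2 of 8 nucleotide genes and 1 of 18 mitosis genes. All of these were higher, and the lists of S phase entry and turnover held 0. With libraries centred on their median, the list medians kept their sign except that of the regulators of S phase entry, which was -0.0044. Among 9 other licensing factors, 3 were higher and 6 lower, with a median difference of -0.12, which was 0.14 without control replicate 2. Orc1, the largest subunit of the origin recognition complex, stood at -1.14, 0.02 and 0.95 in the labelled knockout libraries and at -1.14 and -1.22 in the controls. Knockout replicate 1 and both controls of Orc1 lay at the 0-read value, so its difference of 1.13 (SE 0.58) rests on 2 libraries, and was 0.62 on leaving out knockout replicate 3. Mcmbp, which binds MCM proteins and helps take the hexamer off DNA, went the other way, at 0.73, -0.16 and 0.23 against 1.12 and 0.82, a difference of -0.70 (SE 0.41). Of 12 firing factors 8 were tested, 7 were higher and 1 was lower, with a median of 0.53, which is 0.40 above all genes. This median was 0.34 on leaving out knockout replicate 1. Of the 5 firing factors whose controls were not at 0 reads, 4 were higher. Mtbp, a partner of treslin, gave 0.93, 0.93 and 0.43 against -0.16 and -0.18, a difference of 0.94 (SE 0.38, limma adjusted p = 0.633). Dbf4, the activating subunit of the Cdc7 kinase, differed by 0.75 (SE 0.46), or by 0.48 on leaving out knockout replicate 2, with knockout replicate 1 and both controls at the 0-read value. As in Mcm10, the controls of Mtbp were as far apart as those of genes recognised at 0 reads, 0.0161 within a range of 0.0149 to 0.0168. Mcm9, a relative of the hexamer with a role in DNA repair, differed by 0.35 (SE 0.54), and -0.38 without control replicate 1. Mcm8, its partner, lay at the 0-read value in 4 libraries and was not tested.

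At the replication fork, 15 of 21 tested genes were higher and 6 lower, against 60.0% higher among all tested genes. The fork median was 0.30, which became 0.05 on leaving out control replicate 1 and 0.66 on leaving out the other control. Timeless, which protects the fork, stood at 1.05, 0.73 and 0.25 against -0.31 and -0.34, a difference of 1.00 (SE 0.40, limma adjusted p = 0.626). The controls of Timeless, too, were as far apart as genes at 0 reads, 0.0291 within a range of 0.0279 to 0.0309. Pold1, the catalytic subunit of DNA polymerase delta, differed by 0.86 (SE 0.44), or by 0.57 on leaving out knockout replicate 3. In the nucleotide supply list 5 of 8 genes were higher, near the 60.0% of all tested genes, with a median of 0.38. Rrm1, the large subunit of ribonucleotide reductase, stood at 1.17, 2.13 and 0.29 against 0.37 and -0.37, a difference of 1.20 (SE 0.56). On leaving out knockout replicate 2 the Rrm1 difference was 0.73. The CTP synthase gene Ctps was below both controls in each labelled knockout library, with 0.29, 0.28 and -0.39 against 1.49 and 0.90, a difference of -1.13 (SE 0.41, limma adjusted p = 0.615).

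Among the regulators of entry into S phase, 13 of 21 genes were higher, near the 60.0% of all tested genes, with a median of 0.24. On leaving out control replicate 1 this median was 0.12. Cdkn1a, the p21 inhibitor of cyclin-dependent kinases, stood at 2.09, 1.70 and 2.26 against 1.13 and 0.43. The difference was 1.24 (SE 0.41, limma adjusted p = 0.615). Cdk4, the kinase that acts with D-type cyclins in G1, stood at 0.98, 1.23 and 1.63 against -0.43 and 0.54, a difference of 1.23 (SE 0.44). Neither passed. On leaving out control replicate 1 Cdk4 differed by 0.75, and Cdkn1a by 1.59. Of the genes for turnover of licensing factors 2 of 9 were higher and 7 lower, with a median of -0.07, which was 0.39 without control replicate 2. Cul1, the scaffold of the SCF ubiquitin ligase, differed by -1.35 (SE 0.46, limma adjusted p = 0.615). Cul4a, scaffold of the ligase that marks Cdt1 for destruction, differed by 0.82 (SE 0.46), or by 0.49 on leaving out knockout replicate 1.

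Genes of mitosis, the later part of the cycle, were higher in 16 of 18 tested members, against 60.0% of all tested genes. Their median was 0.43. That is 0.30 above all genes, and 0 of the 18 passed. The 8 licensing members, Mcm10 among them, had a median 0.31 above all genes. The hexamer genes alone stood at -0.0046 relative to all genes, with 3 of 6 higher. Bub1b, a spindle checkpoint kinase, differed by 1.28 (SE 0.49), or by 0.74 on leaving out control replicate 1. Tpx2, a spindle assembly factor, differed by 1.09 (SE 0.46). Control replicate 1 was the lowest library in 11 of the 18, as in 4 of the 6 hexamer genes, against 23.7% of all tested genes. The mitosis list averaged 0.21, 0.25 and 0.14 in the labelled knockout libraries, -0.65 in control replicate 1 and 0.06 in control replicate 2 on the centred scale. Leaving out control replicate 1 gave a mitosis median of 0.08, and leaving out the other control gave 0.98. In the hexamer and the mitosis genes, control replicate 1 was therefore the library farthest from 0 on this scale. The same library was farthest over all tested genes, at -0.13.

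**Figure D4:**
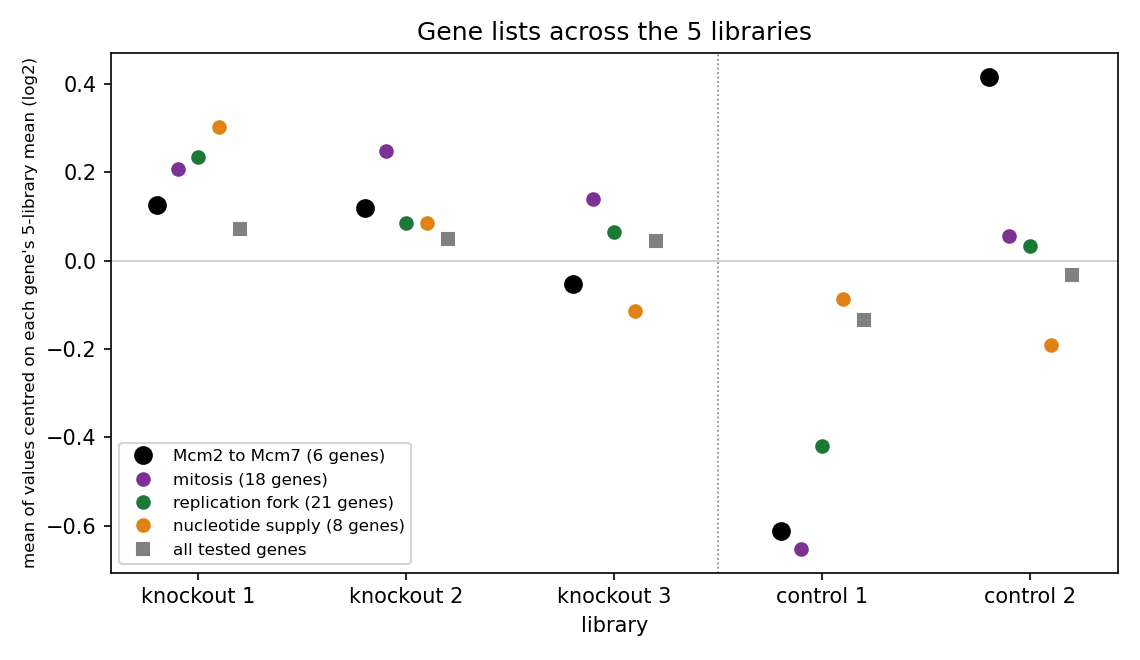
Mean of log2 values centred on the 5-library mean of each gene, for the Mcm2 to Mcm7 genes, the mitosis, replication fork and nucleotide supply lists, and all tested genes, in each of the 5 libraries. The hexamer and the mitosis list stand at -0.61 and -0.65 in control replicate 1, and the hexamer at 0.42 in control replicate 2.

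The 5 tested genes whose centred profile came nearest to the mean profile of the hexamer genes were Stil, Cdk1, Mettl16, Rbpj and Med10. Their root mean square distances over the 5 libraries were 0.0455, 0.0455, 0.0492, 0.055 and 0.056 log2 units. Cdk1, the kinase that drives mitosis, and Stil, a centriole duplication factor, had the same values in each library, 0.54, 0.53, 0.48, -0.12 and 0.86 in the order knockout 1 to 3 and control 1 and 2. The hexamer genes themselves lay farther from their own mean, from 0.378 for Mcm3 to 0.778 for Mcm4. In the 5 nearest genes the labelled knockout libraries spanned only 0.0624 (Stil and Cdk1) to 0.0734 (Mettl16). In the hexamer genes they spanned 0.50 (Mcm7) to 2.14 (Mcm4). The nearest profiles are thus rows with nearly flat labelled knockout values, like the average of the hexamer but unlike its single genes. Read counts are not given, so how many reads these rows rest on is unknown. With so few libraries, likeness of this kind is a description of these samples.

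Marker levels of the sorted cells are given beside these counts because other dividing cells could enter the gate. All 10 microglial markers were tested, with library medians from 2.72 to 2.95 in the labelled knockout libraries and from 2.65 to 2.95 in the controls. Of these markers 4 were higher and 6 lower, with a median difference of -0.11, which is -0.24 relative to all genes. Each labelled knockout library lay above both controls in 2 of them and below both in 1, Siglech. Among all tested genes 60.0% were higher. Of 8 monocyte markers 5 were tested and 5 were higher, with library medians from 0.57 to 1.07 against -0.13 to -0.12. Of these 5, Ccr2, Treml4 and Plac8 had both controls at or level with the 0-read value and so had to be higher to be tested. Ly6c2 and Chi3l3 were listed at 0. Of 9 neutrophil markers 5 were tested and 5 were higher, with medians from 0.88 to 1.66 against -0.15 to -0.11. The same holds for S100a8 and Mmp8 among them. Elane was listed at 0, and Mpo, an enzyme of early neutrophil precursors, was above the 0-read value in knockout replicate 1 alone. Of 6 border macrophage markers 4 were tested and 3 were higher, with medians from 0.65 to 1.07 against -0.12 to -0.11. Lyve1 had both controls at the 0-read value and so had to be higher to be tested. The controls of Pf4, at -0.12 and -0.13, were nearly level too, though not recognised at 0 reads. Of the other cell types 7 of 8 lymphocyte, 4 of 6 neuronal, 1 of 5 astrocyte, 5 of 6 oligodendrocyte lineage, 3 of 5 endothelial, 4 of 5 mural and fibroblast markers and 3 of 4 listed red cell markers were at 0 or at the 0-read value in 4 or more libraries. The part of these cells in the values of the licensing genes was not tested. In these bulk samples, a difference in the number of dividing cells and a difference in transcript per cell cannot be told apart.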

How the data were processed

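PolyA RNA of 5 libraries was sequenced with a kit that does not mark strand. Per the labels, 286 M reads of 40 bases were obtained, and 274 M (95%) aligned to GRCm38/mm10. TopHat2 2.0.13 and DESeq2 (no role or version) are named in the submitters' processing notes. For the read counter and the annotation, these sources name nothing. The values deposited by the authors were read as log2 values centred for each gene, which is inferred from the values themselves. Rows at 0 throughout (6974) and rows with 1 fixed pattern across libraries (4483) have the form a regularized log gives to genes without reads. A library was taken to be at a gene's 0-read value where it followed that pattern within 2%. Genes at it in 4 or 5 libraries, rows at 0 and 27 names turned into dates were left out, which left 9400.

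The main test was limma 3.58.1 in R 4.3.3 on the deposited log2 values (~ group, eBayes without trend), with Benjamini-Hochberg adjustment over all tested genes and a threshold of 0.05. It was tested on simulated data. Groups and replicate numbers came from the labels. The members, lists and filter were chosen with earlier results of these data known. Named genes are the members, Stat3, Cx3cr1, the 2 tested genes with the smallest p in each list, and the 5 with the nearest profile. Alternatives were other filters, scalings and variance models, a replicate block and leaving out each library. Chil3 and Hbb-bs were found under older symbols. Positions are 1-based, from GENCODE vM21, and promoters from RefSeq (GRCm38.p6). Tables and plots were made in Python 3.11.15 with numpy 2.4.6, matplotlib 3.10.9 and pandas 2.3.3.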

Additional observations from a re-analysis of the deposited data

How the results depend on the processing

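Depth per library is unknown, and 2 controls limit each interval. Of the 8 members, 0 passed the threshold under each of the 12 alternatives run. Over all genes 0 passed, and 1 did without the filter on low values. With each library left out in turn, the median difference of the members (0.45) ran from 0.0223 to 0.6469. The differences that turned sign in these fits ran from -0.78 to 1.62 for Mcm2, from -0.62 to 0.44 for Mcm4, from -1.06 to 0.66 for Mcm5 and from -0.90 to 0.32 for Mcm6. For other genes they ran from -0.10 to 0.35 for Stat3, from -0.38 to 1.08 for Mcm9, from -0.35 to 0.64 for Stil and Cdk1, from -0.33 to 0.61 for Mettl16, from -0.33 to 0.59 for Rbpj and from -0.32 to 0.59 for Med10. Centring each library on its median turned Stat3 to -0.0803, Stil and Cdk1 to -0.10, Mettl16 to -0.11, Rbpj to -0.11 and Med10 to -0.11. Quantile normalization turned Stat3 to -0.0245, Stil and Cdk1 to -0.059, Mettl16 to -0.0562, Rbpj to -0.0695 and Med10 to -0.0814. The cause was not tested. The fit with a replicate block gave 0 genes past the threshold and a member median of 0.54. It gives the differences found without knockout replicate 3, so Mcm6 was 0.21. The samples share only a number: across genes, the gap between knockout replicates 1 and 2 correlated with that between the controls at r = -0.038. The unadjusted calls at 0.05 were 526 for higher and 198 for lower. These became 204 and 425 after median centring, 302 and 301 after quantile normalization, 295 and 94 with the block, and 685 and 445 without control replicate 2.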
